A study of Mus musculus with 10 samples.

Results

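Broad accessible domains are stretches of open chromatin that the peak caller returned as 1 unbroken interval of 1500 bp or more. Overlapping peaks of all 10 libraries on chromosomes 1 to 19 and X were merged into 201290 union regions. A region was kept as a domain when it held a single peak of at least 1500 bp in every library of at least 1 of the 4 groups. This left 1757 domains, 0.873% of the regions. Peak width in these same lists chose them, so widths, counts of domains and their sharing between groups are descriptions and carry no test. The libraries came from bone marrow stromal cells of C57BL/6J mice, gated as CD45(-) Ter119(-) CD31(-), and the age of the animals is not given in the sources used here. rMSC (n = 3), the submitters' revitalized MSCs, were stromal cultures given vectors for 5 genes, namely Klf7, Ostf1, Xbp1, Irf3 and Irf7. Control stroma (n = 3) was cultured stroma that received a control vector. Scf-GFP(+) (n = 2) and Scf-GFP(-) (n = 2) were freshly sorted cells with and without the green reporter of stem cell factor. Per the labels' protocols both cultures were seeded from Scf-GFP(+) cells, and grown with FGF-basic and 20% serum. The labels name no separate animal or dish for each replicate, so every p-value reflects library-to-library spread, possibly only technical.

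ATAC-seq uses a transposase that cuts and tags DNA where nucleosomes or other proteins do not shield it. At a typical active gene the open stretch is a short nucleosome-free gap around the start. Wider stretches are known at strongly used promoters, at clusters of neighbouring enhancers, and along the whole body of short genes that are transcribed at a high rate, such as immediate early genes and histone genes. A wide peak needs signal that stays above the caller's threshold along its whole length, so its width also depends on how many fragments a library holds.

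The sequence in front of the starts that lay in domains was rich in G, C and CpG. Starts come from a RefSeq table built on GRCm38.p6, whose coordinates are those of mm10, the build of the peaks. Each window holds 250 bases before and 50 after the start. The 1779 windows whose start lay in a domain had a median G and C content of 65.7%, against 61.7% for 7287 windows in other regions with a peak in all 10 libraries and 56.7% for all 21045 windows. The median ratio of observed to expected CpG was 0.844 in domain windows, against 0.811 in the always open windows and 0.574 in all windows. The GC box GGGCGG, on either strand, stood in 76.2% of domain windows, against 69.9% of always open and 46.7% of all windows. The TATA box letters TATAAA were present in 5.96%, against 5.35% and 12.7%, and the AP-1 letters TGANTCA in 3.71%, against 3.68% and 7.04%. These shares describe letters in a window and say nothing of binding. The 250 bases in front of 6 starts are printed because the results below return to these genes, 1 or 2 for each kind of domain. Lower case is the RefSeq sequence in the direction of the gene, and capitals mark matches, on either strand, to the GC box or TATA box letters given above, to the CCAAT box or to the CRE letters TGACGTCA. The windows are Ccn1 at chr3:145649986-145650235 (minus strand), Id3 at chr4:136143572-136143821 (plus), Jun at chr4:95052223-95052472 (minus), Fos at chr12:85473640-85473889 (plus), Adamts1 at chr16:85803114-85803363 (minus) and H2ac11 at chr13:22042950-22043199 (minus).
Ccn1: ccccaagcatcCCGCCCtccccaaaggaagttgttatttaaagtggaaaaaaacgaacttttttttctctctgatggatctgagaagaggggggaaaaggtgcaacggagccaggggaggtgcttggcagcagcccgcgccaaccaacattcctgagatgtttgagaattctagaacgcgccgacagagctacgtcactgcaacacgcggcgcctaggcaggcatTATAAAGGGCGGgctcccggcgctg
Id3: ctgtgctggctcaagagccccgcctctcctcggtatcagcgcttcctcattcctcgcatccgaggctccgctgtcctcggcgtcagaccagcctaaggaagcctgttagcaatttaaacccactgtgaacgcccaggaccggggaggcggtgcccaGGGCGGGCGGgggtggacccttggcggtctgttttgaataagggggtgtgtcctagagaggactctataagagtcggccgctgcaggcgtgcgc
Jun: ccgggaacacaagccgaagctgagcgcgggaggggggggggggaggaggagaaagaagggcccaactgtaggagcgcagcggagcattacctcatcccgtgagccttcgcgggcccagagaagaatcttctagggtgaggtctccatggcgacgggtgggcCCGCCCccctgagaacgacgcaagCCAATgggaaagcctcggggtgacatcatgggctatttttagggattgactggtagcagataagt
Fos: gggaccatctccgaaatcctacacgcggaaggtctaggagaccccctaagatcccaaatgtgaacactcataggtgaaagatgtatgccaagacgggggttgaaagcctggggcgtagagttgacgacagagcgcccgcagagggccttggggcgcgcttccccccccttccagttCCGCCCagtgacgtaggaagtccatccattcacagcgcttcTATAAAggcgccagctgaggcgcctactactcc
Adamts1: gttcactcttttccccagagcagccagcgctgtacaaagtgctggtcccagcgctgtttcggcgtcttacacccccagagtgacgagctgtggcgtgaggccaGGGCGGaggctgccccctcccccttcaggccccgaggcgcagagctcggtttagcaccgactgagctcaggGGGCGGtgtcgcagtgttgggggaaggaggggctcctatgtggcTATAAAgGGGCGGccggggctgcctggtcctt
H2ac11: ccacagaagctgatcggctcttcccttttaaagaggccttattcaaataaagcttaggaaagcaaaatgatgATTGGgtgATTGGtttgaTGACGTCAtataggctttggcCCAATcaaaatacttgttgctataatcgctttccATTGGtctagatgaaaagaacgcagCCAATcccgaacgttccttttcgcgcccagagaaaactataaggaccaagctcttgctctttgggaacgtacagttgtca
Ccn1, Fos and Adamts1 each held TATAAA close to the start, and Adamts1 held the GC box 3 times. The H2ac11 window lies between the starts of H2ac11 and H2bc11, which point away from each other, and held CCAAT 5 times and the CRE letters once. Over all windows, CCAAT was found in 40.5% of domain windows, against 40.4% of always open and 38.5% of all windows, and TGACGTCA in 2.59%, against 4.24% and 2.26%.

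Each library gave 470 to 2209 broad peaks. The 3 rMSC libraries held 999, 1299 and 888 broad peaks, the 3 control stroma libraries 470, 872 and 1080, the Scf-GFP(+) libraries 1897 and 1919, and the Scf-GFP(-) libraries 1214 and 2209. As a share of a library's peaks this was 1.13 to 1.83% in rMSC, 0.971 to 1.48% in control stroma, 2.81 and 3.98% in Scf-GFP(+) and 2.59 and 5.54% in Scf-GFP(-), so every sorted library lay above every cultured one. The constant background that the caller used, recovered from the authors' fold values, was also higher in each sorted library than in each cultured one. It was 0.236 to 0.346 fragments in rMSC, 0.296 to 0.353 in control stroma, 0.408 and 0.591 in Scf-GFP(+) and 0.391 and 0.715 in Scf-GFP(-). Within groups it could run the other way: the Scf-GFP(-) library at 0.715 held 1214 broad peaks and that at 0.391 held 2209, and the control stroma library at 0.353 held 470 and that at 0.296 held 1080. Its part in the number of broad peaks was not tested. Broad peaks were also tall. Their median summit held 26 to 33 fragments in every library, against 6 to 9 for narrower peaks. Markers of the gate were checked by whether a summit lay within 1 kb of the gene's start. Of 8 stromal markers, 7, 7 and 6 passed in rMSC, 7 in each control stroma library, 8 and 7 in Scf-GFP(+), and 1 and 2 in Scf-GFP(-). Of 8 blood markers, 1, 1 and 2 passed in rMSC, 0, 1 and 3 in control stroma, 4 and 5 in Scf-GFP(+), and 6 and 5 in Scf-GFP(-). Ptprc, which encodes CD45, had such a summit in both Scf-GFP(-) lists and in no other. Ikzf1, Gata1, Tal1 and Lcp1 had one in both Scf-GFP(-) lists and in at least 1 Scf-GFP(+) list. Spi1 had one in every rMSC list but not in Scf-GFP(-) replicate 2, and Itgam and Laptm5 had none. Pdgfra, Pdgfrb, Cxcl12 and Kitl had one in all 8 other lists and in neither Scf-GFP(-) list. Col1a1 had one in every list, and Col1a2 in all but Scf-GFP(-) replicate 1. Lepr had one only in the Scf-GFP(+) lists. Prrx1 had one in neither Scf-GFP(-) list and lacked it in rMSC replicate 3 and Scf-GFP(+) replicate 2. In bulk libraries, a different mix of cells and a different state of the same cells cannot be told apart.

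**Figure D1:**
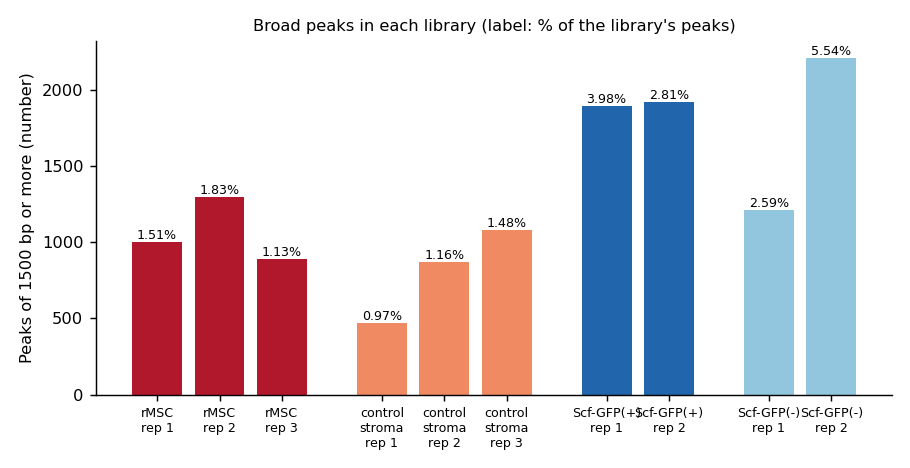
Number of peaks of 1500 bp or more in each library (bars, 1 per library), with the share of all peaks of that library in percent above each bar. The 4 sorted libraries held 1214 to 2209 broad peaks and the 6 cultured libraries 470 to 1299.

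Most domains were broad in sorted cells alone. By group, 384 regions (0.191% of all) were broad in rMSC, 232 (0.115%) in control stroma, 1153 (0.573%) in Scf-GFP(+) and 867 (0.431%) in Scf-GFP(-). The largest classes were broad in Scf-GFP(+) alone (594), in Scf-GFP(-) alone (415) and in both sorted groups but neither culture (254). Next came 117 domains broad in rMSC alone and 71 broad in all 4 groups. Control stroma alone accounted for 32, and both cultures without the sorted groups for 10. In all, 1263 domains (71.9%) were broad only in sorted groups, 159 (9.0%) only in cultures and 335 (19.1%) in both kinds. A sorted group needs 2 broad libraries and a cultured group 3, which makes the sorted groups' rule easier to meet. When each library contributed only its 470 widest peaks, the counts were 153 in rMSC, 136 in control stroma, 235 in Scf-GFP(+) and 206 in Scf-GFP(-). The counts also move with single libraries: 587 domains were broad in rMSC without replicate 3, 461 in control stroma without replicate 1, 1903 and 1882 in Scf-GFP(+) without replicate 1 and 2, and 2196 in Scf-GFP(-) without replicate 1.

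**Figure D2:**
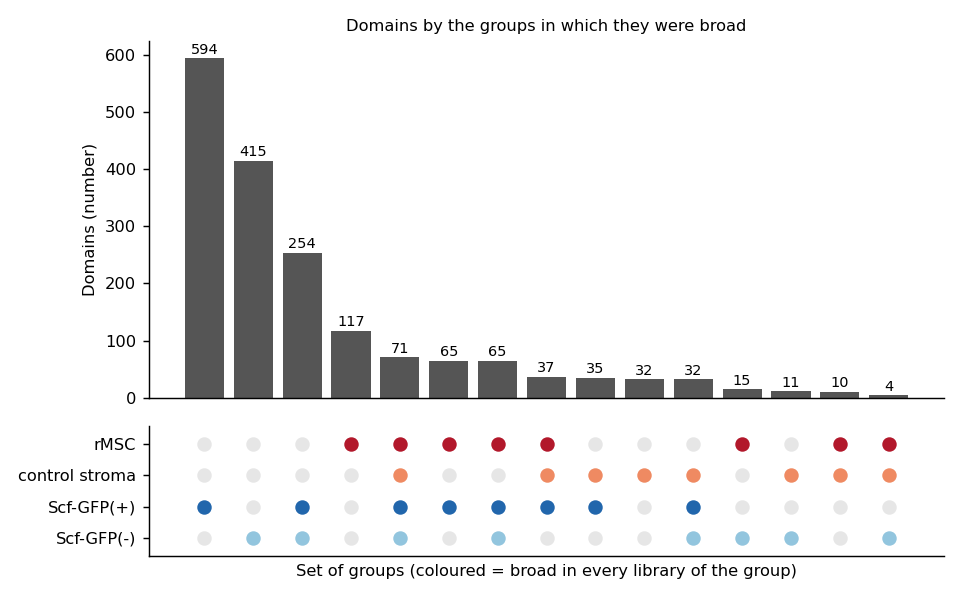
Number of domains (bars) for each set of groups in which they were broad, with the set shown by coloured dots under the bar. The 3 largest sets, 594, 415 and 254 domains, hold sorted groups and no culture.

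Being broad in 1 group alone rarely meant being closed elsewhere. A peak of some width was present in all 10 libraries at 1525 of the 1757 domains (86.8%). Of the 594 domains broad in Scf-GFP(+) alone, 578 had a peak in every rMSC library, 583 in every control stroma library and 504 in both Scf-GFP(-) libraries. Of the 415 broad in Scf-GFP(-) alone, 367 had a peak in every rMSC library, 358 in every control stroma library and 410 in both Scf-GFP(+) libraries. No peak was listed in either Scf-GFP(-) library at 32 of the 117 domains broad in rMSC alone, at 15 of the 32 broad in control stroma alone and at 58 of the 594 broad in Scf-GFP(+) alone. Many domains also lie close to the limit. Taking the narrowest library of the widest group, 414 regions lay within 100 bp above it and 522 within 100 bp below. Tpm3, a tropomyosin gene, sat at 1525 and 1500 bp in Scf-GFP(+) and was kept, while Rsrp1 sat at 1499 and 1969 bp in Scf-GFP(+) and was not. Of the 262 domains broad in rMSC and not in control stroma, 132 had widths that did not overlap between the 2 groups, and rMSC lay wholly above control stroma at 6.49% of all union regions. The same held for 42 of 110 domains broad in control stroma and not in rMSC (4.86% of all regions), and for 535 of 731 broad in Scf-GFP(+) and not in Scf-GFP(-) (10.2% of all regions). The rule used these widths, and 2 libraries against 2 separate more easily than 3 against 3, so nothing is read from these counts. Over domains, the mean width in the groups where they were broad ran from 1502 to 16949 bp with a median of 1873 bp, and 40 domains reached 3000 bp.

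Broad peaks lay at gene starts far more often than narrower ones. The position of the summit was not part of the choice of domains, and chromosome 18, which has no starts in the table used, was left out of these shares. In rMSC 64.4, 61.8 and 64.5% of broad peaks had their summit within 1 kb of the start of a protein-coding gene, against 15.2 to 16.9% of narrower peaks. The shares were 64.0, 59.4 and 62.6% in control stroma (narrower peaks, 15.4 to 21.6%), 69.5 and 67.8% in Scf-GFP(+) (22.6 and 17.2%) and 70.0 and 68.5% in Scf-GFP(-) (21.3 and 24.0%). Broad peaks exceeded the others by 46.6 ± 2.54 percentage points (mean ± SD, 10 of 10 libraries; exact two-sided sign-flip test over libraries, p = 0.00195, the smallest that 1024 flips can give). Among broad peaks, the share at starts was lower in culture. It averaged 62.8 ± 1.99% in the 6 cultured libraries and 68.9 ± 0.989% in the 4 sorted libraries (SD), a difference of -6.14 points (exact two-sided permutation test over libraries, p = 0.00476, the smallest of 210 arrangements). Each side pools 2 different groups and the test treats their libraries as alike, so it cannot speak for culture as such. Scf-GFP(-) cells were also not the cells that seeded the cultures. Within the flow cells named in the deposited data it was -5.50 points on the flow cell of every replicate 1 and -6.06 points on the other. The groups of 2 or 3 libraries cannot reach 0.05 on their own, and each group's mean is given as a value: 63.6 ± 1.56% in rMSC, 62.0 ± 2.37% in control stroma, 68.7 ± 1.24% in Scf-GFP(+) and 69.2 ± 1.05% in Scf-GFP(-). Narrower peaks ran the same way, with overlap: 15.2 to 21.6% in the cultured and 17.2 to 24.0% in the sorted libraries. The lower share in culture is thus not particular to broad peaks.

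**Figure D3:**
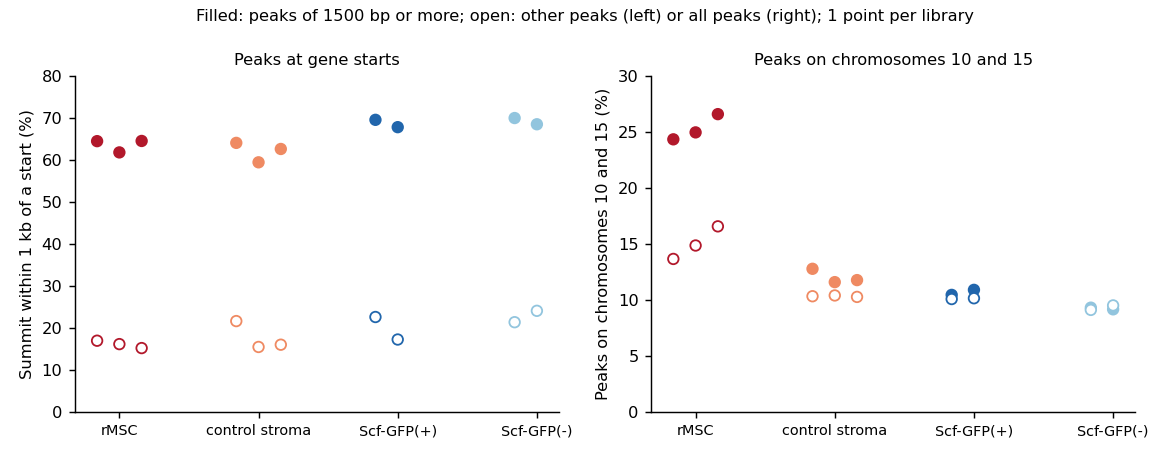
Share of peaks with a summit within 1 kb of a gene start (left, %) and on chromosomes 10 and 15 (right, %), 1 point per library. Filled points are broad peaks, at 59.4 to 70.0% on the left; on the right the broad peaks of the 3 rMSC libraries stand at 24.3 to 26.6%, above those of all other libraries.

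Where a broad peak covered an isolated start, it reached out on both sides. The median extent upstream was 787 to 891 bp and the median extent into the gene 841 to 1040 bp over the 10 libraries, against 313 to 368 bp and 291 to 453 bp for narrower peaks. A peak's extents on both sides make up its width, by which the peaks were split. The larger extents of broad peaks thus follow from that choice, and nothing is read from them. The side inside the gene was the longer in 55.7 to 61.2% of rMSC peaks, in 45.8 to 58.8% of control stroma peaks, in 62.9 and 59.7% of Scf-GFP(+) peaks and in 61.3 and 67.1% of Scf-GFP(-) peaks. At 1000 bp into the gene, 44.5 to 46.4% of broad peaks still covered the position in rMSC, 33.0 to 46.7% in control stroma, 50 and 47.5% in Scf-GFP(+) and 51.4 and 54.8% in Scf-GFP(-). By position, 1247 domains (71.0%) held a listed start of a protein-coding gene or a whole named gene. Another 206 (11.7%) held an end of a gene without a listed start, 165 (9.4%) lay in a gene body and 139 (7.9%) outside protein-coding genes. In 48 domains (2.73%) the interval held a whole protein-coding gene. A wide interval holds a start or a gene more easily. These counts have no share over all union regions beside them, so nothing is read from them.

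**Figure D4:**
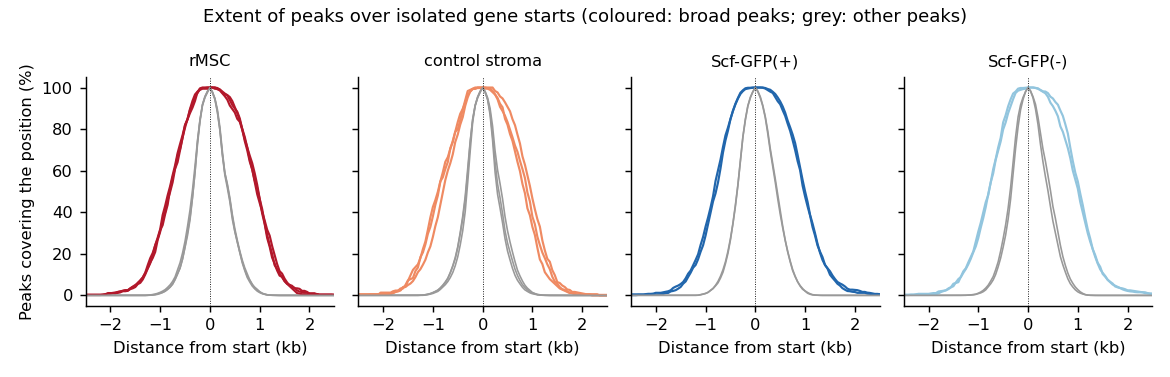
Share of peaks that cover each position (%) by distance from an isolated gene start (kb, positive into the gene), for broad peaks (coloured) and other peaks (grey), 1 line per library, in rMSC, control stroma, Scf-GFP(+) and Scf-GFP(-). Broad peaks extend past 1 kb into the gene in 33.0 to 54.8% of cases. Peaks were split by width, so the wider coloured curves follow from that choice.

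The 71 domains broad in all groups included Ddit3, 3 of the 35 listed AP-1 and immediate early genes (Jun, Jund and Egr1) and an interval that carries the name of a repeat. At Ddit3 (chromosome 10, 127287138 to 127292675), which encodes the stress factor CHOP, the widest peak measured 3554, 3566 and 3675 bp in rMSC, 3011, 3384 and 3279 bp in control stroma, 3336 and 4004 bp in Scf-GFP(+), and 4014 and 4666 bp in Scf-GFP(-). These widths were close to one another in all 4 groups. Jun (chromosome 4, 95047801 to 95054260), the central subunit of the AP-1 factor, had 2561, 2321 and 1892 bp in rMSC, 2653, 3183 and 4387 bp in control stroma, 3212 and 4086 bp in Scf-GFP(+), and 1835 and 3798 bp in Scf-GFP(-). Every control stroma value exceeded every rMSC value. The domain of Jund, another AP-1 subunit, extended to 1850 to 2297 bp in rMSC and 2838 to 4429 bp in control stroma. Egr1, a growth response factor, Klf13, Gnas, which encodes a stimulatory G protein subunit, and Hnrnpk, an RNA-binding protein gene, were also broad throughout. The interval with a repeat name, on chromosome 17, 39842819 to 39849006, overlaps Rn18s-rs5, a ribosomal RNA related pseudogene, and measured 6125 to 6179 bp in all 10 libraries. Another long domain, in the body of the protein-coding gene Sfi1 (chromosome 11, 3184147 to 3200208), ran to 2645, 4714 and 10341 bp in rMSC, 15900, 4908 and 6565 bp in control stroma, 14372 and 16050 bp in Scf-GFP(+), and 16028 and 15932 bp in Scf-GFP(-). Reads that map to several copies were handled upstream in a way not given in the sources used here, so both domains are uncertain.

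In rMSC, the widest domain of the series covered a whole matrix gene. Thbs1 (chromosome 2, gene 118111876 to 118127133) encodes thrombospondin 1, a secreted matrix glycoprotein. Its domain measured 18674, 16454 and 15720 bp in rMSC, 1772, 756 and 2129 bp in control stroma, 951 and 926 bp in Scf-GFP(+), and 329 and 546 bp in Scf-GFP(-). The gene body lay under peaks over 100, 97.7 and 98.9% of its length in rMSC, against 7.5, 18.2 and 13.1% in control stroma, 5.7 and 3.5% in Scf-GFP(+) and 0.0% in both Scf-GFP(-) libraries. The rMSC values did not overlap those of any other group. Ccn1 and Ccn2, secreted matrix proteins known as targets of the YAP and TAZ coactivators, showed the same form. At Ccn2 (chromosome 10, 24595028 to 24600600) the width was 3124, 5309 and 3079 bp in rMSC, 670, 945 and 761 bp in control stroma, 2393 and 1217 bp in Scf-GFP(+), and no peak was listed in Scf-GFP(-). At Ccn1 (chromosome 3, 145643705 to 145653986) it was 2946, 6707 and 3231 bp in rMSC, 1390, 1617 and 2422 bp in control stroma, 2657 and 2272 bp in Scf-GFP(+), and again no peak in Scf-GFP(-). Both were thus wider in each rMSC library than in any control stroma library. Id3, an inhibitor of helix-loop-helix factors, had 2963, 2637 and 3048 bp in rMSC, 1253, 1116 and 1787 bp in control stroma, 1311 and 1332 bp in Scf-GFP(+), and 656 and 415 bp in Scf-GFP(-). Timp3, an inhibitor of matrix proteases whose gene lies inside Syn3, held 3 separate domains broad in rMSC alone, and its body lay under peaks over 53.6, 67.0 and 51.5% of its length in rMSC against 6.0, 11 and 11.2% in control stroma, 5.0 and 7.2% in Scf-GFP(+) and 1.0 and 0.8% in Scf-GFP(-). Actb, which encodes cytoplasmic actin, had a domain over one end of the gene of 2083, 2250 and 2951 bp in rMSC, 698, 1022 and 971 bp in control stroma, 249 and 423 bp in Scf-GFP(+), and no peak in Scf-GFP(-). A neighbouring Actb domain was broad in rMSC (2739, 2037 and 2069 bp) and Scf-GFP(+) (1668 and 1886 bp). It also had wide peaks in control stroma (1585, 1477 and 1551 bp) and Scf-GFP(-) (1471 and 1929 bp). A region at one end of Csf1, the macrophage growth factor gene, reached 1866, 3711 and 2084 bp in rMSC and 543, 1821 and 610 bp in control stroma. It ran from 107737402 to 107741165 on chromosome 3 and lay mostly outside the gene (107741048 to 107760469). One in Ebf3, a stromal transcription factor gene, reached 1875, 1985 and 2186 bp in rMSC and 1048, 547 and 1006 bp in control stroma.

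Chromosomes 10 and 15 held more of the rMSC domains than of the others. They carried 12.6% of all union regions and 12.8% of all domains, but 130 of the 384 domains broad in rMSC (33.9%), against 12.9% in control stroma, 10.4% in Scf-GFP(+) and 9.34% in Scf-GFP(-). Of the 117 domains broad in rMSC alone, 58 (49.6%) lay there. The shift was not limited to broad peaks: 13.7, 14.9 and 16.6% of all rMSC peaks lay on these chromosomes, against 10.3, 10.4 and 10.3% in control stroma. Without the 2 chromosomes, chosen after these shares were seen, 254 domains were broad in rMSC and 202 in control stroma. Timp3 and Ccn2 lie on chromosome 10, and Thbs1, Ccn1, Id3, Actb, Csf1 and Ebf3 do not. The copy number of these chromosomes was not tested.

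**Figure D5:**
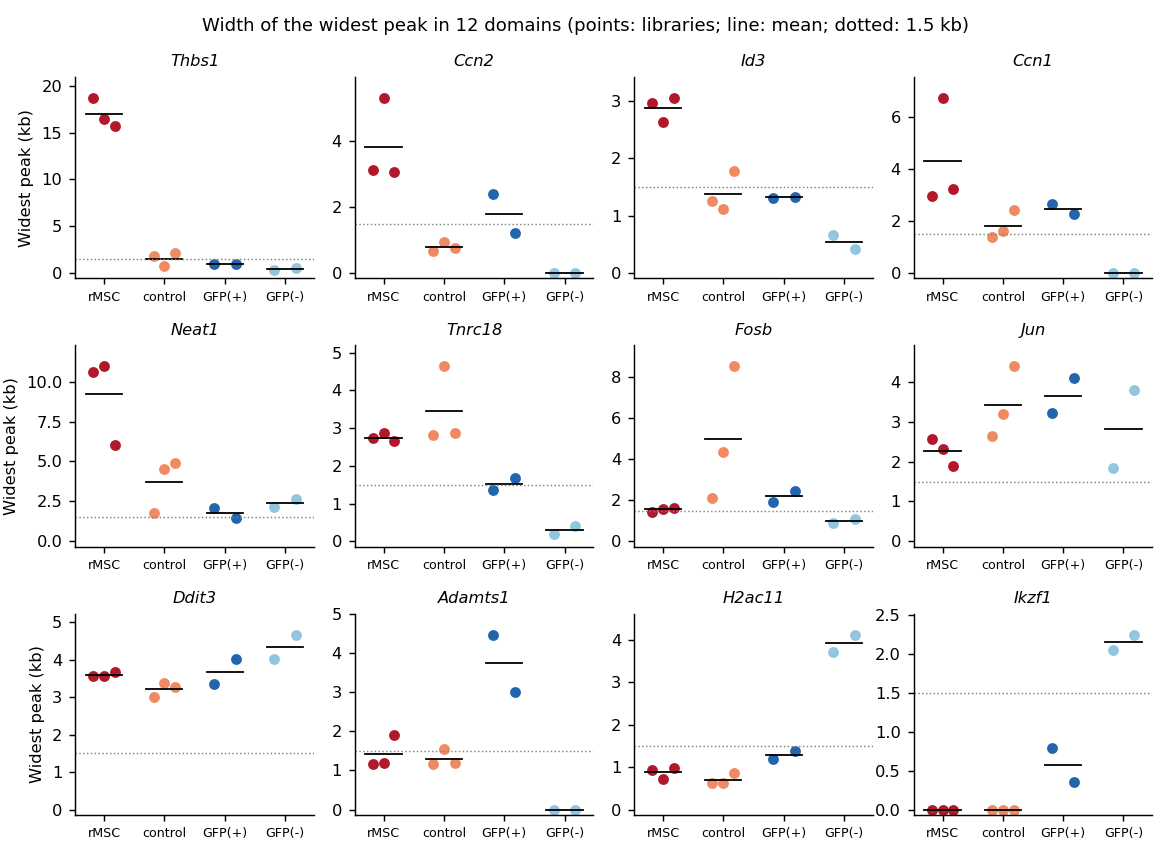
Width of the widest peak (kb, linear axis from 0) in 12 domains, by group from rMSC to Scf-GFP(-). Points are libraries, lines are group means and the dotted line marks 1.5 kb; Thbs1 stands at 15.7 to 18.7 kb in rMSC.

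The 10 domains broad in rMSC and control stroma alone included the start of Tnrc18, with a domain of 2733, 2868 and 2654 bp in rMSC, 2818, 4638 and 2881 bp in control stroma, 1363 and 1677 bp in Scf-GFP(+), and 200 and 399 bp in Scf-GFP(-). Every cultured value lay above every sorted one. Lrp1, a lipoprotein receptor gene, belonged to the same class, as did Nab2, a corepressor of the early growth response factors. Outside this class, a domain at the noncoding RNA gene Neat1, the scaffold of nuclear paraspeckles, was broad in rMSC, control stroma and Scf-GFP(-). It measured 10621, 10953 and 6043 bp in rMSC, 1754, 4507 and 4889 bp in control stroma, 2072 and 1470 bp in Scf-GFP(+), and 2143 and 2648 bp in Scf-GFP(-). It was widest in the 3 rMSC libraries and missed the rule in Scf-GFP(+) by 1 library.

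Control stroma alone held 32 domains, the fewest of any single group, and Fos and Maf were the genes of the AP-1 and immediate early list among them. Fos, the partner of Jun in AP-1, had 1733, 1015 and 1221 bp in rMSC, 1742, 3745 and 2911 bp in control stroma, 1582 and 1443 bp in Scf-GFP(+), and 1316 and 1637 bp in Scf-GFP(-). Fosb was broad in control stroma and Scf-GFP(+), with 1453, 1596 and 1646 bp in rMSC, 2110, 4379 and 8536 bp in control stroma, 1920 and 2470 bp in Scf-GFP(+), and 903 and 1065 bp in Scf-GFP(-). Each control stroma value of Fosb exceeded every rMSC value. Maf, a leucine zipper factor gene, and Tbx3, a T-box factor gene, were broad in control stroma alone, but with rMSC widths of 1141 to 1954 bp and 1141 to 2376 bp they overlapped it. Xylt1, whose product starts proteoglycan chains, had no peak in any rMSC library, 1877, 2344 and 1709 bp in control stroma, 1755 and 1413 bp in Scf-GFP(+), and 595 and 1714 bp in Scf-GFP(-). Only control stroma met the rule there. Pcdh7, a protocadherin gene, reached 517, 408 and 712 bp in rMSC, 1643, 2880 and 2725 bp in control stroma, 2128 and 2091 bp in Scf-GFP(+), and 1019 and 522 bp in Scf-GFP(-), and was broad in control stroma and Scf-GFP(+).

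Domains broad in Scf-GFP(+) alone included regulators of mesenchymal cells. Adamts1, a matrix protease gene, measured 1162, 1186 and 1907 bp in rMSC, 1158, 1545 and 1181 bp in control stroma and 4465 and 2998 bp in Scf-GFP(+), with no peak in Scf-GFP(-). Gpr153, an orphan receptor gene, had 3512 and 3300 bp in Scf-GFP(+). Both stood above every culture, and no Scf-GFP(-) peak lay in either interval. Wwtr1, which encodes the coactivator TAZ, had 2059 and 2278 bp in Scf-GFP(+), and its DNA-binding partner Tead1 had 1981 and 1867 bp, with no Scf-GFP(-) peak in either interval. Jag1, a Notch ligand, had 1834 and 4293 bp in Scf-GFP(+) against 438 and 506 bp in Scf-GFP(-). In rMSC it had 1937, 1375 and 1636 bp, and in control stroma 1609, 1203 and 1266 bp. Hes1, a Notch target, had 1526 and 4102 bp in Scf-GFP(+) against 0 and 413 bp in Scf-GFP(-), and up to 1586 bp in control stroma. Both genes thus overlapped a culture. Shox2, a limb homeobox gene, Klf4, Cebpa, a factor of fat cell formation, Col1a2, a chain of type I collagen, Vcan, a large proteoglycan, and Vegfa, an endothelial growth factor, belonged to the same class. Of these, Shox2 and Cebpa stood above every culture. Klf4, Col1a2 and Vegfa overlapped control stroma, which reached 1909, 2528 and 2455 bp, and Vcan overlapped rMSC, which reached 2157 bp.

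Domains broad in Scf-GFP(-) included histone and cell cycle genes and a few blood regulators. On chromosome 13, 22039828 to 22043957, a domain with the whole genes H2ac11, H2bc11 and H4c9 measured 945, 733 and 982 bp in rMSC, 631, 616 and 858 bp in control stroma, 1191 and 1388 bp in Scf-GFP(+), and 3710 and 4130 bp in Scf-GFP(-). A second histone cluster, with H2ac7, H2ac8, H2bc7, H2bc8 and H3c4, had 942 and 1033 bp in Scf-GFP(+) and 1720 and 7497 bp in Scf-GFP(-). Of these, the H2ac11 domain was far wider in both Scf-GFP(-) libraries, and the H2ac7 domain mainly in replicate 2. Ikzf1, a lymphoid regulator, had no peak in any culture, 795 and 360 bp in Scf-GFP(+), and 2051 and 2250 bp in Scf-GFP(-). Myb, a regulator of blood progenitors, had 207, 0 and 338 bp in rMSC, 0, 0 and 200 bp in control stroma, 593 and 608 bp in Scf-GFP(+), and 1571 and 2249 bp in Scf-GFP(-). At both genes the Scf-GFP(-) libraries stood above all others, and they are also the libraries with 6 and 5 of 8 blood markers open; the part of blood cells was not tested. Runx1, a blood stem cell regulator, was the remaining blood list gene broad in Scf-GFP(-), with 1658, 1626 and 1303 bp in rMSC, 1078, 465 and 2363 bp in control stroma, 1791 and 1222 bp in Scf-GFP(+), and 2011 and 2392 bp in Scf-GFP(-). A region in Fli1, an ETS factor gene of the same list, was broad in Scf-GFP(+) alone, with 1557 and 1681 bp in Scf-GFP(+) and 0 and 217 bp in Scf-GFP(-). Among cell cycle genes, Mybl2 had 1211 and 1075 bp in Scf-GFP(+) and 1966 and 1799 bp in Scf-GFP(-). Mcm6, a subunit of the replicative helicase, had 1222 and 1022 bp in Scf-GFP(+) and 1754 and 1723 bp in Scf-GFP(-). At both, the sorted groups did not overlap. The remaining 3 missed the rule in Scf-GFP(+) by 1 library and overlapped. Ccne1, cyclin E1, had 1633 and 1375 bp in Scf-GFP(+) and 2151 and 1512 bp in Scf-GFP(-). Cdk6 had 1260 and 2851 bp in Scf-GFP(+) and 2134 and 1505 bp in Scf-GFP(-), and Myc had 2927 and 1434 bp in Scf-GFP(+) and 1847 and 1927 bp in Scf-GFP(-). Both sorted groups shared Ptma, Klf10, Sox12, Tgfb1, the gene of a growth factor that acts on stroma, and Cdkn1b, a cell cycle inhibitor.

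Gene lists differed in how many of their genes carried a domain. Of all 21631 protein-coding genes, 8.9% had a domain in the body or within 1 kb of a start, and 8.03% within 1 kb of a start. By group the share was 1.93% for rMSC, 1.27% for control stroma, 5.83% for Scf-GFP(+) and 4.6% for Scf-GFP(-), and the counts below are read against these. For AP-1 and immediate early genes it was 23 of 35 (65.7%), with 7 broad in rMSC, 7 in control stroma, 15 in Scf-GFP(+) and 11 in Scf-GFP(-). Ubiquitous genes followed with 18 of 37 (48.6%), with 9, 6, 17 and 8 in the same order of groups. Gapdh, a glycolytic enzyme, and Polr2a, the large subunit of RNA polymerase II, were broad in rMSC, control stroma and Scf-GFP(+), while Srsf1, Srsf6 and Srsf7, splicing factors, were broad in Scf-GFP(+) alone. Next came cell cycle genes with 11 of 27 (40.7%), of which 1 was broad in rMSC, 0 in control stroma, 6 (22.2%) in Scf-GFP(+) and 9 (33.3%) in Scf-GFP(-). Genes of the unfolded protein response and secretion had 7 of 25 (28%). Among them were Atf4, a stress-induced factor, in rMSC and the chaperone gene Hsp90b1 in rMSC and both sorted groups. Matrix and adhesion genes had 9 of 38 (23.7%), of which 5 were broad in rMSC, 0 in control stroma, 5 in Scf-GFP(+) and 1 in Scf-GFP(-). Itgav, an integrin subunit, measured 1848, 1604 and 1940 bp in rMSC, 1037, 769 and 1566 bp in control stroma, 2263 and 1820 bp in Scf-GFP(+), and 481 and 840 bp in Scf-GFP(-). Contractile genes had 6 of 28 (21.4%), of which 4 were broad in rMSC, 0 in control stroma, 4 in Scf-GFP(+) and 1 in Scf-GFP(-). The 4 in rMSC were Actb, Actn1, an actin crosslinker, Myh9, a nonmuscle myosin gene on chromosome 15, and Zyx, a focal adhesion protein. For these 3 besides Actb the widths in control stroma reached 2392, 1307 and 2194 bp, so Actn1 and Zyx overlapped the rMSC values and Myh9 did not. Mesenchymal regulators had 8 of 42 (19.05%), with 5 in Scf-GFP(+) and 1 in each other group, and signalling genes 13 of 53 (24.5%), with 12 in Scf-GFP(+). None of 39 homeobox cluster genes, 22 interferon response genes, 18 endothelial genes or 14 chondrocyte genes carried a domain. Blood cell genes had 4 of 40 (10.0%), of which 3 (7.5%) were broad in Scf-GFP(-) against 4.6% of all genes, and Schwann and neural genes 1 of 12, Erbb3 in rMSC, on chromosome 10.

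Of 28 niche factors, 5 (17.9%) carried a domain in the body or within 1 kb of a start, against 8.9% of all protein-coding genes. Within 1 kb of a start it was 2 (7.14%), against 8.03% of all genes, so no excess was seen there. The 5 were Csf1, overlapped at one end only, and Ebf3 in rMSC, Jag1 and Pdgfra in Scf-GFP(+), and Tgfb1 in both sorted groups. Kitl, which encodes stem cell factor, had none, with a widest peak in the gene and 1 kb around it of 1408, 1409 and 1504 bp in rMSC, 696, 1185 and 967 bp in control stroma, 753 and 1150 bp in Scf-GFP(+), and 252 and 0 bp in Scf-GFP(-). Kitl lies on chromosome 10, and all 3 rMSC values were above the rest. Cxcl12, the chemokine that holds stem cells in the marrow, reached at most 442 bp in rMSC, 718 bp in control stroma and 1220 bp in Scf-GFP(+). Vcam1, an adhesion molecule, and Angpt1, a ligand of the receptor Tie2, carried no domain either. Of the 5 transduced genes, 2 carried a domain. Klf7 was broad in control stroma (1524, 1798 and 1528 bp) and Scf-GFP(+) (1598 and 1598 bp), with 1500, 1348 and 1157 bp in rMSC. Xbp1, a factor of the unfolded protein response, was broad in Scf-GFP(-) (1695 and 1624 bp). Ostf1, Irf3 and Irf7 carried no domain. Peaks nevertheless covered 48.4, 56.3 and 52.6% of the Irf3 gene in rMSC, against 9.9, 11.5 and 13.7% in control stroma, and 35.2, 87.9 and 60.3% of Irf7 in rMSC, against 27.6, 24.8 and 24.1% in control stroma. The rMSC values of both genes lay above those of control stroma. Irf3 stood at 16.5 and 28.7% in Scf-GFP(+) and 21.7 and 23.7% in Scf-GFP(-), below rMSC. Irf7 stood at 18.6 and 34.2% in Scf-GFP(+) and 37.2 and 51.4% in Scf-GFP(-), so Scf-GFP(-) overlapped rMSC. Between rMSC and control stroma no such gap was seen at Klf7 (2.2, 3.2 and 3.5% against 1.8, 4.3 and 3.5%), Xbp1 (32.5, 29.4 and 26.2% against 25.1, 31.6 and 31.4%) or Ostf1 (6.0, 7.5 and 8.0% against 4.7, 7.7 and 7.0%). Whether vector copies of these genes add to the peaks was not tested.

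A further question was whether the genes near domains also differed in the rest of their open sites. For each gene, summits outside all domains were counted in the gene body and 10 kb on either side, in lists cut to the same 39912 strongest peaks per library. Loci averaging 2 or more summits over the libraries (8212 of 21631) entered 1 limma fit of all 4 groups on log2(summits + 0.5). Adjusted p-values below are limma's, with Benjamini-Hochberg adjustment across the 8212. A locus can pass this filter through 1 group alone, so counts over the tested loci describe those loci only, and named loci that averaged under 2 summits outside their higher group are given as counts with no test. These counts come from the same libraries as the widths. The 4 comparisons share groups, so their values are set side by side only.

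Between the sorted groups, 1184 loci (14.4%) had more summits in Scf-GFP(+) and 1351 (16.5%) fewer, with a median log2 change of -0.19. With all deposited peaks in place of equal lists the split was 1697 and 443. Among 397 tested genes near domains broad in Scf-GFP(+) and not in Scf-GFP(-), 76 (19.1%) had more and 70 (17.6%) fewer, with a median of -0.17. Among 219 genes near domains broad in Scf-GFP(-) and not in Scf-GFP(+), 3 (1.37%) had more and 60 (27.4%) fewer, with a median of -0.45. Fndc3b, a fibronectin domain gene with a start domain of 1600 and 2090 bp in Scf-GFP(+), had 20 and 20 further summits in Scf-GFP(+) and 0 in both Scf-GFP(-) libraries (adjusted p = 3.76e-06). App, the amyloid precursor gene, had 13 and 11 against 0 and 0 (adjusted p = 8.82e-05). Both loci kept the call in every alternative that tested them. Cnksr3 had 12 and 11 summits in Scf-GFP(+) and 0 and 1 in Scf-GFP(-), and Dock4 11 and 12 against 1 and 0; fitted on these 2 groups alone, both missed the threshold (adjusted p = 0.101 for each). The other loci picked by size reached the filter only through their higher group. Adamts9, a matrix protease gene, had 14 and 10 summits in Scf-GFP(+) and 1 and 0 in Scf-GFP(-). On the other side, Ikzf1 had 2 and 2 summits in Scf-GFP(+) and 13 and 18 in Scf-GFP(-). Phf14 and Stag1, a cohesin gene, had a domain broad in Scf-GFP(+) and not in Scf-GFP(-): Phf14 had 1 and 1 in Scf-GFP(+) and 9 and 9 in Scf-GFP(-), and Stag1 had 1 and 0 against 6 and 11. E2f8, a cell cycle repressor, had 1 and 0 against 7 and 7, and Usp15 2 and 0 against 7 and 11.

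Between control stroma and Scf-GFP(+), 533 loci (6.49%) had more summits in control stroma and 584 (7.11%) fewer, and with all deposited peaks 339 and 119. The count of both directions, 1117, was 637, 641 and 703 without control stroma replicate 1, 2 and 3, and 544 and 596 without Scf-GFP(+) replicate 1 and 2. It was 918 with a term for the flow cell and 452 with the replicate number as a block. Among 543 tested genes near domains broad in Scf-GFP(+) and not in control stroma, 33 (6.08%) had more and 47 (8.66%) fewer, with a median of -0.12 against -0.02 over all loci. Among 51 near domains broad in control stroma and not in Scf-GFP(+), 0 had more and 5 (9.8%) fewer. Fos was one of these 5, with 2 summits in each control stroma library and 6 and 7 in Scf-GFP(+) (log2 change -1.48 ± 0.10, SE, adjusted p = 0.000385), but missed the threshold with all deposited peaks and with 50 kb on either side (highest adjusted p = 0.219). Tspan5, a tetraspanin gene, had 4, 4 and 6 summits in control stroma and 0 in both Scf-GFP(+) libraries (adjusted p = 0.00458), while its start domain was broad in Scf-GFP(+) (1505 and 2110 bp). Abi1, an actin regulator, had 2, 2 and 3 against 0 and 0 (adjusted p = 0.000385), but 10 and 10 in Scf-GFP(-), so its summits were not particular to culture. Atp8a1, a lipid flippase gene, had 0 in all control stroma libraries and 5 and 2 in Scf-GFP(+) (adjusted p = 0.00458). It also had 0 in every rMSC library and 12 and 13 in Scf-GFP(-), so it reached the filter only through the sorted groups. Atf3, a stress-induced leucine zipper factor, had 0 in control stroma and 2 and 6 in Scf-GFP(+), and like Wasl, Prcp, Efna5 and Shox2, picked by the same rule of size, it reached the filter only through its higher group. Shld2 lost the call with the replicate block (adjusted p = 0.0608) and when 1 of several libraries was left out (up to 0.178).

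Between rMSC and control stroma, 146 loci (1.78%) had more summits in rMSC and 113 (1.38%) fewer. The count of both directions, 259, was 68 without control stroma replicate 1 and 82 to 100 without any other library of these 2 groups, and 499 without either Scf-GFP(-) library. It was 190 with a term for the flow cell and 54 with the replicate block. With all deposited peaks the split was 26 and 11, and without chromosomes 10 and 15 it was 85 and 104. Among 157 tested genes near domains broad in rMSC and not in control stroma, 4 (2.55%) had more and 1 (0.64%) fewer, with a median of 0.30 against 0.00 over all loci. Without chromosomes 10 and 15, 73 such genes remained, with 1 higher, 1 lower and a median of 0.00. Timp3 had 16, 22 and 20 summits outside its domains in rMSC and 2, 4 and 3 in control stroma (log2 change 2.53 ± 0.22, adjusted p = 0.00353), and kept the call in every alternative that tested it. Pcdh7 had 0 in every rMSC library and 7, 10 and 7 in control stroma (adjusted p = 0.00229), and Xylt1 0 and 8, 4 and 10 (adjusted p = 0.00353). With all deposited peaks both missed the threshold (adjusted p = 0.127 and 0.0990). Ank, a pyrophosphate transporter gene on chromosome 15, had 25, 22 and 27 summits in rMSC and 5, 4 and 7 in control stroma (log2 change 2.14 ± 0.31, adjusted p = 0.0206), with an adjusted p of up to 0.0686 when 1 library of these groups was left out and 0.0629 with the replicate block. Socs3, an inhibitor of cytokine signalling, had 1 summit in each rMSC library and 2, 3 and 3 in control stroma (log2 change -1.06 ± 0.15, adjusted p = 0.0169), with up to 0.0560 when 1 library was left out and 0.0650 with the block. Its start domain was broad by the rule in rMSC (1705, 1866 and 1596 bp) and missed it in control stroma (2394, 1483 and 2149 bp) by 1 library. Marchf9, Xkr5, Sirt4 and Pxn passed as well, each with an adjusted p of up to 0.0686 to 0.120 once 1 of several libraries was left out, and of 0.0733, 0.0757, 0.0761 and 0.101 with the block in this order of genes. Over all alternatives their adjusted p reached 0.199, 0.246, 0.583 and 0.781 in the same order. With all deposited peaks each lost the call. So did Ank and Socs3, whose adjusted p reached 0.0941 and 0.131 over all alternatives. Thbs1 had 0 summits outside its domain in all 10 libraries and was not tested.

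Between rMSC and Scf-GFP(+), 698 loci (8.5%) had more summits in rMSC and 628 (7.65%) fewer, and with all deposited peaks 813 and 196. The count of both directions, 1326, was 858, 792 and 873 without rMSC replicate 1, 2 and 3, and 659 and 746 without Scf-GFP(+) replicate 1 and 2. It was 1177 with a term for the flow cell and 749 with the replicate block. Among 94 tested genes near domains broad in rMSC and not in Scf-GFP(+), 17 (18.1%) had more and 4 (4.26%) fewer, with a median of 0.24 against 0.00 over all loci. Without chromosomes 10 and 15 only 33 such genes remained, with 3 (9.09%) in each direction and a median of -0.08, against 7.2% and 8.26% of all loci there. Among 506 genes near domains broad in Scf-GFP(+) and not in rMSC, 34 (6.72%) had more and 43 (8.5%) fewer. Rnf217, on chromosome 10, had 7, 11 and 9 summits in rMSC and 0 in both Scf-GFP(+) libraries (adjusted p = 0.00472). Ank had 25, 22 and 27 against 2 and 5 (log2 change 2.76 ± 0.34, adjusted p = 0.00337). Tspan5 had 7, 10 and 8 against 0 and 0 (adjusted p = 0.00179). On the lower side, Adamts9 had 0 in every rMSC library and 14 and 10 in Scf-GFP(+), and reached the filter only through them. Pcdh7 had 0 in every rMSC library and 4 and 6 in Scf-GFP(+) (adjusted p = 0.00144). B4galt1, a galactosyltransferase gene, had 0 in rMSC and 7 and 5 in Scf-GFP(+) (adjusted p = 0.00713), and Ifngr2, a subunit of the interferon gamma receptor, had 1, 0 and 0 against 5 and 6 (log2 change -3.05 ± 0.47, adjusted p = 0.0073). Pcdh7 and B4galt1 missed the threshold with all deposited peaks (adjusted p = 0.153 and 0.0614), and Ifngr2 in the fit of these 2 groups alone (0.0626). Pdcd4 lost the call without Scf-GFP(+) replicate 1 (adjusted p = 0.0900), and Shld2 without most single libraries (up to 0.192) and with the replicate block (0.0575).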

How the data were processed

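ATAC-seq libraries of 2700 to 5000 sorted cells were amplified and read as 100 bp pairs, per the labels' protocols. BWA, MACS2 and mm10 are named in the submitters' processing notes, without versions or settings. Each library has 1 peak list deposited by the authors, of 39912 to 78470 peaks in narrowPeak form. In these lists the deposited fold enrichment is the summit pileup over the caller's background, the deposited −log10 p and −log10 q are the caller's, and the deposited score is 10 times the −log10 q. Domains and gene lists were chosen with earlier results of these data known.

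Widths were end minus start, and peaks sharing at least 1 base were merged. Regions were named by a start inside them, otherwise by a gene end or the nearest gene, because 4357 of 21631 protein-coding genes (all of chromosome 18 among them) had no listed start in the table used; numbered clones were not used as names. Genes were named in the text by size within each set of groups (6 widest, 8 for all 4 groups), by membership in a list, or by the 5 largest changes that passed in each direction of a comparison, plus Kitl, Cxcl12, Vcam1, Angpt1 and the transduced genes. Other genes named were picked after their values were seen. Results for 2 genes that these rules pick are not reported here. limma 3.58.1 in R 4.3.3 used a trend and 6 residual degrees of freedom, tested on simulated data. Exact tests ran in Python 3.11.15. Read depth is not given; the pileups recovered from fold values were whole numbers of fragments within 0.05 in 100% of peaks. At most 0.051% of peak intervals were identical between any pair of libraries. Replicate 1 of every group shares a flow cell, per the peak names, yet same-numbered libraries did not deviate together; fits with a flow cell term and with a replicate block were run as alternatives.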

Additional observations from a re-analysis of the deposited data

How the results depend on the processing

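Counts of domains moved with the width limit. With a limit 250 bp lower there were 3442 domains, 991 in rMSC, 644 in control stroma, 2419 in Scf-GFP(+) and 1744 in Scf-GFP(-). At 2000 bp there were 437, with 71, 36, 276 and 210 in the same order. With 470 widest peaks per library there were 494, with 153, 136, 235 and 206. When 1 library of a group could miss the limit there were 4058, with 849, 594, 2629 and 2521. Without chromosomes 10 and 15, chosen after seeing the data, 254 were broad in rMSC, and the other counts stayed within 1.5 times. Leaving out 1 library gave 1770 to 2807 domains, 384 to 587 in rMSC, 232 to 461 in control stroma, 1152 to 1903 in Scf-GFP(+) and 867 to 2196 in Scf-GFP(-). The total of 2807 came without Scf-GFP(-) replicate 1.

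The share of broad peaks at starts kept its direction under all 17 alternatives run, with 40.4 to 47.4 points over narrower peaks and -12.1 to -4.80 points for cultured minus sorted libraries. Leaving out 1 library gave 46.2 to 47.1 and -6.52 to -5.46 points.

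The number of loci past the limma threshold depended on the filter, the flank and the groups in the fit. For Scf-GFP(+) against Scf-GFP(-) (2535) it was 1008 with a mean of at least 4 summits, 4961 with 50 kb flanks and 922 with these groups alone. For control stroma against Scf-GFP(+) (1117) it was 1866 without the filter, 411 at 4 summits, 458 with all deposited peaks and 2061 at 50 kb. For rMSC against control stroma (259) it was 791, 136, 37 and 500 under the same settings, and 507 with these groups alone. For rMSC against Scf-GFP(+) (1326) it was 2554, 542 and 2620 without the filter, at 4 summits and at 50 kb. With all deposited peaks the median log2 change over loci was 0.04, 0.07, 0.16 and 0.22 in these 4 comparisons, against -0.19, -0.02, 0.00 and 0.00 with equal lists. Leaving out 1 library gave 1735 to 2434, 544 to 1371, 68 to 499 and 659 to 1563.

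Same-numbered libraries did not deviate together (correlations of -0.018 to 0.020 across loci, against -0.033 to 0.033 for different numbers). With the replicate block the counts were 2200, 452, 54 and 749, and with a flow cell term 2449, 918, 190 and 1177. No locus picked by the rule of size changed sign in any alternative that tested it, and Fos in control stroma against Scf-GFP(+) kept its sign in all 19 and its call in 17.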

Other observations

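Malat1, an abundant nuclear noncoding RNA gene and the neighbour of Neat1 on chromosome 19, carried a domain of 2697, 5042 and 2202 bp in rMSC, 1659, 2640 and 2388 bp in control stroma, 647 and 1208 bp in Scf-GFP(+), and 388 and 959 bp in Scf-GFP(-). It was broad in both cultures and in neither sorted group. The widest domain broad in control stroma alone (chromosome 8, 123426123 to 123430689) lay outside protein-coding genes, 12266 bp from the nearest listed start, that of Def8. It measured 3415, 795 and 2529 bp in rMSC and 4379, 4567 and 4541 bp in control stroma, and no sorted library had a peak there.

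The letters in front of starts differed by the group in which a domain was broad. TATAAA stood in 48 of 411 windows (11.7%) of domains broad in Scf-GFP(-) alone, against 19 of 547 (3.47%) in Scf-GFP(+) alone and 12.7% of all windows. Domains broad in all 4 groups had it in 10 of 83 windows (12.05%), and those broad in both sorted groups only in 7 of 321 (2.18%). The share in Scf-GFP(-) alone is thus not particular to that class. The histone gene windows are among those of Scf-GFP(-), and windows of neighbouring genes share a domain, so these shares carry no test.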
